A study of Mus musculus with 6 samples.

Results

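Adipose progenitor and fibroblast markers were followed in eWAT (white adipose tissue of the epididymal depot, a visceral fat) of obese mice that had received Lmo3 by viral gene transfer. The group consisted of 10 genes (Pdgfra, Pi16, Dpp4, Cd34, Fap, Cd248, Dcn, Lum, Postn and F3) of 19938 genes with a probe set of their own on the array. They were taken by name, each through the brightest probe set annotated with that symbol alone, and each had only 1 such probe set. All 10 were bright enough to be tested among 11963 genes, so that the level filter removed no marker. All mice were male C57BL6/J and received HFD, a diet rich in fat, which began at 6 weeks of age and lasted 12 weeks. The treated tissue had been transduced with rAAV-Lmo3, a recombinant adeno-associated virus of the engineered serotype Rec2 carrying Lmo3, and the control tissue with rAAV-YFP, the same vector carrying yellow fluorescent protein. Both transgenes were driven by a CMV enhancer and chicken β-actin promoter, which is not restricted to adipocytes, and the vectors were injected into both epididymal fat pads. Titles of the samples give rAAV-YFP for the controls, while the treatment text of the same labels gives rAAV-LacZ. Each group held 3 arrays, and each array carried total RNA of a pool of 2 mice, so 3 pools stood against 3. The deposited intensities are on a linear scale and normalized between arrays, and differences are given below on the log2 scale as rAAV-Lmo3 minus rAAV-YFP.

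Adipose progenitors and fibroblasts sit between adipocytes and around vessels, where they replace adipocytes and lay down the extracellular matrix. In mouse fat depots a population marked by Dpp4 and Pi16 lies in the connective tissue sheath of the depot and can give rise to committed preadipocytes, whereas F3 (CD142) marks a further subset of these stromal cells. Obesity is known to remodel the stroma of this depot, and Fap and Postn are commonly used as marks of activated fibroblasts. None of the genes is exclusive to these cells. Cd34 is also made by endothelial cells, Dpp4 by T cells and mesothelium, and F3 by several stromal and epithelial cells. In RNA of whole tissue, fewer cells of a type and less RNA per cell cannot be told apart.

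On all arrays the median intensity lay between 123 and 127.5. The arrays rAAV-Lmo3 1 and rAAV-YFP 2 correlated least with the others (mean r of 0.986 and 0.988, against 0.990 to 0.991 for the remaining 4). Lmo3 itself read 24, 26 and 24 on the rAAV-Lmo3 arrays, against 25, 24 and 24 on the rAAV-YFP arrays, which is far below the limit of 114 used for testing (exact two-sided permutation p = 1). The probe set therefore gave no check of the labels. In their paper, the authors report strong Lmo3 by qPCR in rAAV-Lmo3 eWAT and LMO3 staining in its mature adipocyte fraction. All 10 adipocyte markers were bright enough to be tested, whereas 0 of the 7 epididymis epithelium markers on the array were. The summed intensity of the adipocyte markers was 74123 to 89519 in rAAV-Lmo3 and 77669 to 91716 in rAAV-YFP eWAT, and 9 of the 10 had a difference below 0 (median -0.05).

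In the fit as reported, none of the 10 markers passed the test of rAAV-Lmo3 against rAAV-YFP eWAT. By limma 0 of the 10 passed at an adjusted p under 0.05, as did 0% of the 11963 genes tested, and 0 of 10 passed at an unadjusted p under 0.05, against 4.66% of all genes (558 with all arrays, 263 without rAAV-YFP 2 and 283 without rAAV-Lmo3 3). The groups overlapped for every marker, whereas 10.5% of all genes had groups that did not overlap. The markers were split evenly, with 5 above 0 and 5 below 0, and their median log2 difference was 0.01, against a median of 0.00076 over all genes tested. Their median absolute difference was 0.12, compared with 0.087 over all genes. A p above the threshold does not show that the markers were equal in the groups, and the 95% intervals state which differences the arrays leave possible.

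**Figure D1:**
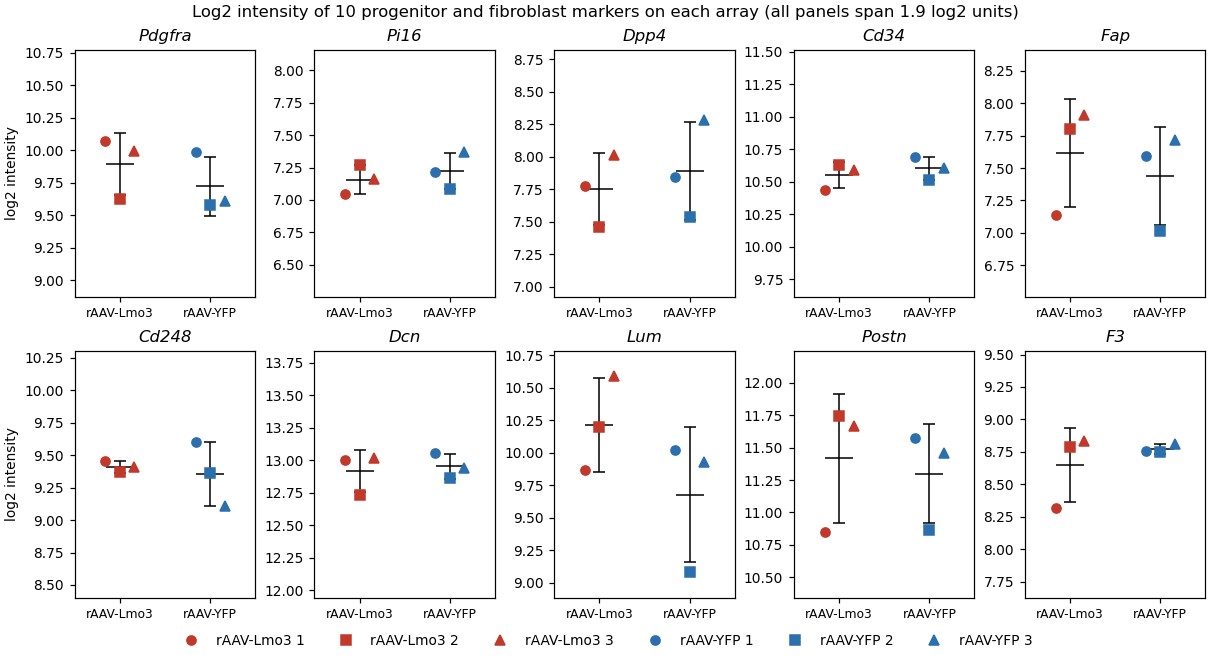
Log2 intensity of each marker (vertical axis, 1 panel per gene, all panels spanning the same number of log2 units) on the 3 rAAV-Lmo3 (red) and 3 rAAV-YFP arrays (blue); symbols give the array number, and black bars the group mean ± SD (n = 3 pools). The groups overlap in every panel, and Postn, Fap and Lum have low values on arrays rAAV-Lmo3 1 and rAAV-YFP 2.

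Among the general markers, Pdgfra, the platelet-derived growth factor receptor that defines adipose progenitors, read 1075, 790 and 1018 on rAAV-Lmo3 arrays 1 to 3, against 1013, 763 and 782 on rAAV-YFP arrays 1 to 3. rAAV-Lmo3 1, rAAV-Lmo3 3 and rAAV-YFP 1 were high and the other arrays low, so the groups overlapped. The log2 difference was 0.17 ± 0.16 (SE, n = 3 pools per group), with a 95% interval from -0.21 to 0.56. Cd34, a surface sialomucin of progenitors and endothelium, read 1388, 1580 and 1545 in rAAV-Lmo3 eWAT, against 1652, 1460 and 1559 in rAAV-YFP eWAT. It was the steadiest of the markers, with a 1.19-fold span from the lowest to the highest array. Its difference was -0.05 ± 0.09, and its interval of -0.27 to 0.16 corresponds to 0.83 to 1.12-fold. Endothelial markers, which share Cd34 with progenitors, were below 0 in 10 of 11 cases, with a median difference of -0.22 and summed intensities of 10631 to 12958 in rAAV-Lmo3 and 11769 to 15244 in rAAV-YFP eWAT. Their part in the level of Cd34 was not tested. Cd248 (endosialin), a C-type lectin-like receptor of stromal cells and pericytes, read 703, 660 and 680 on the rAAV-Lmo3 arrays, against 775, 657 and 552 on the rAAV-YFP arrays. The rAAV-Lmo3 values lay close together and inside the wider range of the controls, with a difference of 0.06 ± 0.13 (interval -0.25 to 0.37).

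Both markers of the interstitial progenitors had a difference below 0 that was smaller than its error. Pi16, a secreted peptidase inhibitor-like protein, read 132, 154 and 143 in rAAV-Lmo3 eWAT, against 149, 136 and 165 in rAAV-YFP eWAT. No array stood out, the groups overlapped, and all values lay little above the limit of 114. The difference was -0.07 ± 0.10 (interval -0.32 to 0.18). Dpp4, a membrane-bound peptidase that removes dipeptides from incretins and chemokines, read 219, 176 and 258 on the rAAV-Lmo3 arrays, against 230, 186 and 312 on the rAAV-YFP arrays. The highest array of each group was number 3, and the difference of -0.14 ± 0.22 (interval -0.66 to 0.38) was smaller than the span within either group, 1.47-fold in rAAV-Lmo3 and 1.68-fold in rAAV-YFP. The array with the most Dpp4, rAAV-YFP 3, also had the highest level of mesothelial markers. The 7 tested genes of that list (Krt19, Krt18, Muc16, Bnc1 and Cdh1 were too dim) summed to 938 to 1339 in rAAV-Lmo3 eWAT and to 1032, 1259 and 2404 in rAAV-YFP eWAT. All 7 lay below 0 with a median difference of -0.37, and 0 of them passed at an unadjusted p under 0.05, against 4.66% of all genes. Without rAAV-YFP 3, Gpm6a (0.04), Upk3b (0.14) and Lrrn4 (0.18) lay above 0, while the others stayed below. Gpm6a, at 93, 85 and 177 on the rAAV-Lmo3 arrays, passed the level filter only through the rAAV-YFP arrays. The part of mesothelial cells in the Dpp4 value was not tested. The Dpp4 difference was 0.06 without rAAV-YFP 3, and without rAAV-YFP 2 it was -0.32.

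F3, or tissue factor, is the cell-surface receptor that starts coagulation together with factor VII. It read 320, 443 and 457 on the rAAV-Lmo3 arrays, against 432, 430 and 450 on the rAAV-YFP arrays. A single array, rAAV-Lmo3 1, was low and the other 5 lay within 430 to 457. The difference was -0.12 ± 0.14 (interval -0.47 to 0.22) with all arrays and 0.04 without rAAV-Lmo3 1.

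Fap, Postn and Lum varied most between pools. Fap (fibroblast activation protein), a membrane-bound peptidase related to Dpp4 and encoded near it on chromosome 2, read 141, 223 and 240 in rAAV-Lmo3 eWAT, against 193, 129 and 210 in rAAV-YFP eWAT. Postn (periostin), a matricellular protein that binds integrins and collagen, read 1841, 3430 and 3248 on the rAAV-Lmo3 arrays, against 3055, 1862 and 2808 on the rAAV-YFP arrays. In both genes rAAV-Lmo3 1 and rAAV-YFP 2 were low and the other 4 arrays high. The highest array exceeded the lowest 1.86-fold for either gene, while the group differences were only 0.18 ± 0.26 for Fap (interval -0.44 to 0.79) and 0.12 ± 0.29 for Postn (interval -0.57 to 0.81). Leaving out rAAV-YFP 2 gave -0.04 for Fap and -0.10 for Postn, and leaving out rAAV-Lmo3 1 gave 0.41 for each.

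Dcn and Lum are small leucine-rich proteoglycans that bind collagen fibrils, and they are neighbours on mouse chromosome 10 with 0 protein-coding genes between them. Dcn (decorin) read 8217, 6816 and 8308 on the rAAV-Lmo3 arrays, against 8498, 7466 and 7862 on the rAAV-YFP arrays, and all arrays lay within a 1.25-fold span. Its difference was -0.03 ± 0.11 (interval -0.29 to 0.22). Lum (lumican) read 932, 1172 and 1538 in rAAV-Lmo3 eWAT, against 1041, 542 and 972 in rAAV-YFP eWAT. The rAAV-Lmo3 arrays 2 and 3 exceeded all controls, but rAAV-Lmo3 1 was below rAAV-YFP 1 and 3, so the groups overlapped. The log2 difference of 0.54 ± 0.29 was the largest of the 10 markers and amounted to 1.45-fold, with an interval of 0.90 to 2.34-fold (unadjusted p = 0.107, adjusted p = 0.970). The low control array weighed on it, since the difference was 0.24 without rAAV-YFP 2, whereas it was 0.71 without rAAV-Lmo3 1. With both arrays left out it was 0.42, at an unadjusted p = 0.0289 in limma but an adjusted p = 1. Lum remained above 0 whichever single array was left out (0.24 to 0.71). The only other marker with that property was Pdgfra (0.08 to 0.31).

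**Figure D2:**
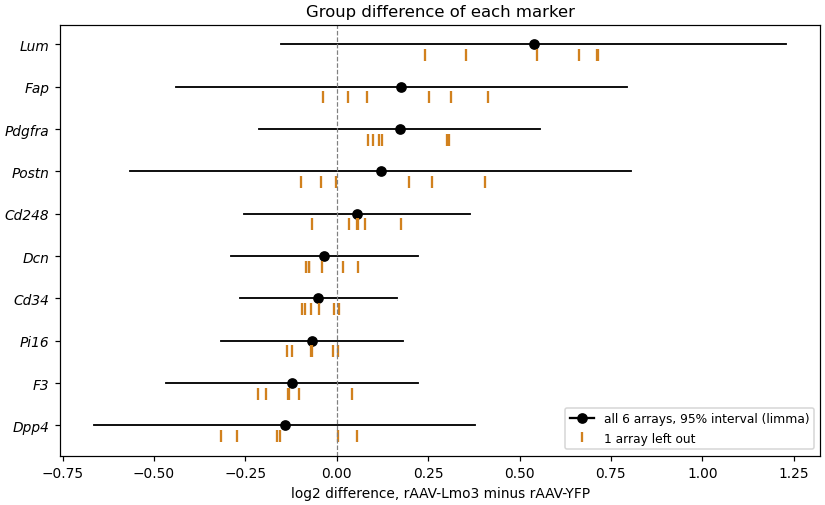
Log2 difference of each marker (horizontal axis, rAAV-Lmo3 minus rAAV-YFP; black points and lines, limma estimate and 95% interval over all 6 arrays, n = 3 pools per group; orange ticks, the estimate with 1 array left out). All 10 intervals include 0, the largest difference is 0.54 for Lum, and 8 of the genes have a tick on the other side of 0.

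The spread between pools was larger for these markers than for most genes. The residual SD within groups had a median of 0.22 on the log2 scale, against 0.14 over all genes tested, and 7 of 10 markers lay above 0.14. Lum (0.45), Postn (0.44) and Fap (0.40) each had a larger spread than 93.2% of all genes tested or more. Cd34 was at the other end, with a spread of 0.095 that exceeded 27.0% of genes.

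On the arrays that stood apart, markers were set against the mean of the other arrays of the same group, and any value below that mean was counted. On rAAV-Lmo3 1 this held for 6 markers, against 49.2% of all genes tested, and on rAAV-YFP 2 for 9 markers, against 53.1% of all genes. The 6 that were below the mean on both (Pi16, Cd34, Fap, Lum, Postn and F3) compare with 35.1% of all genes tested. Postn lay 0.86 lower on rAAV-Lmo3 1 and 0.65 lower on rAAV-YFP 2, Fap 0.71 and 0.64 lower, and Lum 0.53 and 0.89 lower. Pdgfra, Dcn, Dpp4 and Cd248 did not follow on rAAV-Lmo3 1, where they were 0.26, 0.13, 0.04 and 0.07 above the other arrays of the group. F3 was 0.49 lower on rAAV-Lmo3 1 but level with the other controls on rAAV-YFP 2 (0.04 lower), and the shifts of Cd34 and Pi16 were 0.14 to 0.21.

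**Figure D3:**
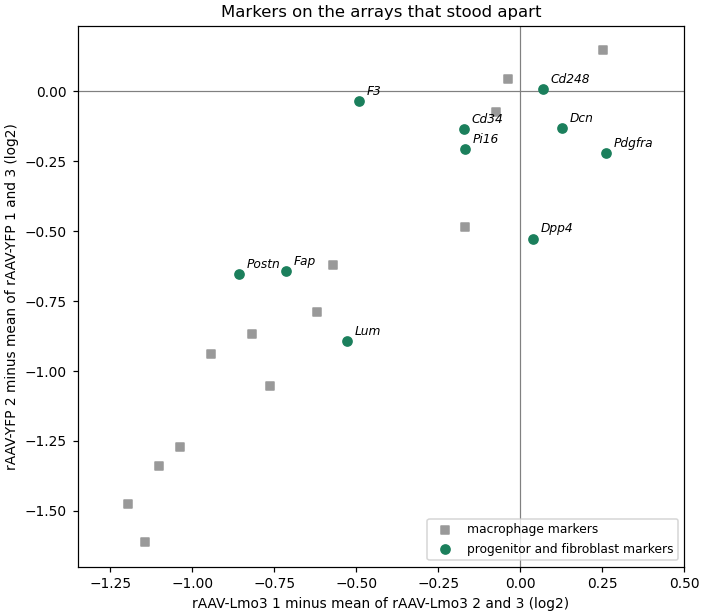
Shift of each gene on the arrays that stood apart, in log2 units (horizontal axis, rAAV-Lmo3 1 minus the mean of rAAV-Lmo3 2 and 3; vertical axis, rAAV-YFP 2 minus the mean of rAAV-YFP 1 and 3; green circles, the 10 markers; grey squares, 13 macrophage markers). Postn, Fap and Lum lie at the lower left among the macrophage markers, whereas Pdgfra, Dcn, Dpp4 and Cd248 lie right of 0.

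Macrophage markers were low on the same arrays. Of 13 that could be tested, 11 were below the mean on both, with a median shift of -0.76 on rAAV-Lmo3 1 and of -0.87 on rAAV-YFP 2. The summed intensity was 27571 on rAAV-Lmo3 1 and 36302 and 38414 on the other rAAV-Lmo3 arrays, against 24935 on rAAV-YFP 2 and 39814 and 32653 on the other rAAV-YFP arrays. Adgre1, which encodes the macrophage antigen F4/80, read 1032, 1946 and 2520 in rAAV-Lmo3 eWAT, against 2268, 718 and 1453 in rAAV-YFP eWAT. The list also holds Lpl and Cd9, which adipocytes and other cells make, and its marker of liver macrophages, Clec4f, was too dim to test. Between the groups 11 of 13 macrophage markers lay above 0 with a median difference of 0.06. Of these, only Fcgr1 and Lpl stayed above 0 whichever array was left out, and Adgre1 went from 0.37 to -0.08 without rAAV-YFP 2. Mertk (-0.27 ± 0.10) was the 1 marker with groups that did not overlap, against 10.5% of all genes. It was also the 1 at an unadjusted p under 0.05, against 4.66% of all genes. Adipocyte markers were shifted the other way, by a median of 0.22 (rAAV-Lmo3 1) and 0.26 (rAAV-YFP 2). The part of these cells in the levels of Postn, Fap and Lum was not tested.

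The sequences in front of the genes that were below the mean on both arrays are shown because these genes were counted together above, F3 only by its small shift on rAAV-YFP 2. RefSeq on GRCm38.p6 gave a start site window for 6 of the 10 markers, including 4 of the 6 genes concerned (Postn, F3, Pi16 and Cd34). The 250 bases before the start are printed 5′ to 3′ on the strand of the gene, which is the plus strand for all 4. They cover chr3:54360857-54361106 (Postn, the second of 2 annotated starts), chr3:121723287-121723536 (F3), chr17:29318632-29318881 (Pi16) and chr1:194938571-194938820 (Cd34). Both strands were searched for 4 motifs, and capitals mark the matches, which do not overlap. The TATA box was searched as TATAAA. The GC box was searched as GGGCGG. The motif bound by the factor NF-Y was searched as CCAAT. The AP-1 site was searched as TGANTCA, where N is any base.
Postn: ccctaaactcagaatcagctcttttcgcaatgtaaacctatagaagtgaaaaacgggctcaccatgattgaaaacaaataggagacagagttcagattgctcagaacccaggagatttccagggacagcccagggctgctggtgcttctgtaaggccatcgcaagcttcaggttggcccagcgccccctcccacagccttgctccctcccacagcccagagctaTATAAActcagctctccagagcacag
F3: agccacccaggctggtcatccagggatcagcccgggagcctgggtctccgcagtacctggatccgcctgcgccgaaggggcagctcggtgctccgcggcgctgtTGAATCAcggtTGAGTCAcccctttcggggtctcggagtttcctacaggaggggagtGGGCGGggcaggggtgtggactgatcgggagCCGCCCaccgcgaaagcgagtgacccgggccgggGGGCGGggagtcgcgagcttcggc
Pi16: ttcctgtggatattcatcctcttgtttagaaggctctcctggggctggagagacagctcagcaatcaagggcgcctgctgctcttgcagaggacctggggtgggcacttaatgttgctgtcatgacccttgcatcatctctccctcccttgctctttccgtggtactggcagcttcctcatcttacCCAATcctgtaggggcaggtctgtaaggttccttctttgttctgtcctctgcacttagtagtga
Cd34: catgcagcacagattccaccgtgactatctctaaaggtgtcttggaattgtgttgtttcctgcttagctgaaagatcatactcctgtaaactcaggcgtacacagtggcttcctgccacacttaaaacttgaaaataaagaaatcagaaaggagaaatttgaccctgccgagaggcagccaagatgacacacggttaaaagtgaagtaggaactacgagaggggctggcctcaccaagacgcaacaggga
The 4 windows had no motif in common. Postn had a TATA box at positions -26 to -21 counted from its start, a motif held by 12.4% of all 32851 windows of this length, while the window of its first annotated start (chr3:54359017-54359266) held none of the 4 motifs. F3 had 2 AP-1 matches, the first of which begins at position -146, and 3 GC boxes, while 6.75% of all windows hold an AP-1 match and 32.7% a GC box. Pi16 had the CCAAT motif (33.8% of all windows) and Cd34 had none of the motifs. These matches describe letters in the windows and were not tested as binding sites.

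Other genes of the progenitor populations were measured beside the markers. Over all genes tested, 4.66% passed at an unadjusted p under 0.05 and 10.5% had groups that did not overlap. The counts in the lists below stand beside these shares. Of the 16 tested genes that are further marks of interstitial progenitors, 6 lay above 0 and 10 below, with a median of -0.07 and 0 passing the adjusted test. Efemp1 (fibulin-3), an elastic fibre protein, was the 1 of these 16 at an unadjusted p under 0.05, against 4.66% of all genes. It read 1714, 1424 and 1533 on the rAAV-Lmo3 arrays, against 1865, 2168 and 1991 on the rAAV-YFP arrays. These groups did not overlap, and the difference was -0.37 ± 0.10 (unadjusted p = 0.00948, adjusted p = 0.970, limma). It stayed between -0.44 and -0.31 whichever array was left out. Cd55, a complement regulator, had a difference of -0.17 ± 0.09, the ligand gene Wnt2 of -0.16 ± 0.10, and the tetraspanin gene Cd81 of -0.19 ± 0.12. These 4 genes were named for their small p-values, and 6 of the 16 lay above 0. Pi16 and Dpp4 were also below 0, but each changed side when a single array was left out. Whether they moved with these genes was not tested.

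Of 18 further committed preadipocyte genes, 8 lay above 0 and 10 below, with a median of -0.02. Adam12, a membrane-anchored metalloprotease, read 475, 782 and 827 in rAAV-Lmo3 eWAT, against 544, 259 and 375 in rAAV-YFP eWAT. Like Lum it was highest on rAAV-Lmo3 2 and 3 and lowest on rAAV-YFP 2. Its difference was 0.85 ± 0.32 (limma, unadjusted p = 0.0329, adjusted p = 0.970) and lay between 0.58 and 1.11 with 1 array left out. Adam12 was the 1 of the 18 at an unadjusted p under 0.05, against 4.66% of all genes. Igf1, a growth factor made by stromal cells and macrophages, had groups that did not overlap, with 2719, 2924 and 2765 in rAAV-Lmo3 and 2458, 2450 and 2607 in rAAV-YFP eWAT, but a difference of only 0.16 ± 0.08. Sparcl1, a matricellular protein, also had groups that did not overlap (-0.15 ± 0.09), and Fmo2, a flavin monooxygenase, differed by -0.35 ± 0.23.

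Among 24 further pan-progenitor and fibroblast genes, 9 lay above 0 and 15 below, with a median of -0.07. Of these, 18 were below the mean on both arrays that stood apart, against 35.1% of all genes tested. Tnxb, or tenascin-X, read 784, 948 and 981 on the rAAV-Lmo3 arrays, against 1273, 1123 and 1007 on the rAAV-YFP arrays. Its difference was -0.33 ± 0.13 (limma, unadjusted p = 0.0387, adjusted p = 0.970). Tnxb was the 1 of the 24 at an unadjusted p under 0.05, against 4.66% of all genes. The collagen-binding protein gene Dpt had a difference of 0.27 ± 0.14, the complement inhibitor gene Serping1 of -0.32 ± 0.17, and Fbln1, another elastic fibre gene, of -0.38 ± 0.21. Of the 18 tested fibro-inflammatory and myofibroblast genes, 6 lay above 0 and 12 below with a median of -0.17, and 0 passed at an unadjusted p under 0.05. On both arrays that stood apart 12 of these 18 were below the mean, against 35.1% of all genes tested. Among these the proteoglycan gene Aspn (-0.28 ± 0.15), the chemokine gene Ccl2 (-0.32 ± 0.18), the TGF-β binding protein gene Ltbp2 (-0.26 ± 0.18) and the smooth muscle actin gene Acta2 (-0.23 ± 0.16) had the smallest p-values. Fap, Lum and Postn had differences above 0, as did 6 of these 18 genes. Without rAAV-YFP 2, Fap (-0.04) and Postn (-0.10) lay below 0 as well.

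**Figure D4:**
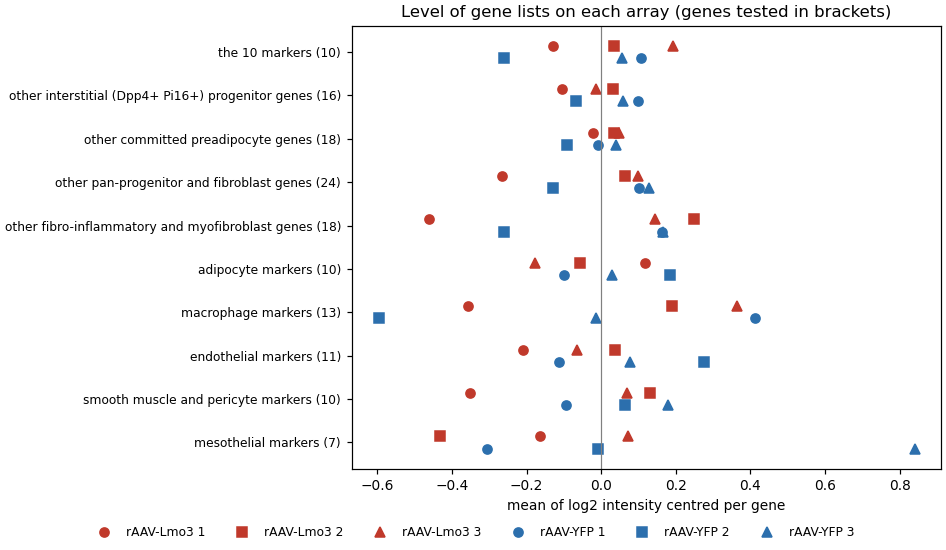
Level of each gene list on each array (horizontal axis, mean of the log2 intensity centred on each gene's mean over the 6 arrays; the number of genes tested is in brackets; red, rAAV-Lmo3; blue, rAAV-YFP; symbols, array number). The 10 markers were lowest on rAAV-YFP 2 (-0.26) and rAAV-Lmo3 1 (-0.13), the macrophage markers on the same arrays (-0.60 and -0.36), and the mesothelial markers were highest on rAAV-YFP 3 (0.84).

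Families related to the markers gave no gene past the adjusted test either. Of the other small leucine-rich proteoglycans, 7 of 8 lay below 0, with a median of -0.25, whereas Lum lay above 0. Bgn (0.14 without rAAV-Lmo3 1), Fmod (0.22 without rAAV-YFP 3) and Podnl1 (0.02 without rAAV-YFP 2) changed side with 1 array left out. Aspn, Prelp, Podn and Nyx stayed below 0. Podnl1 read 103 to 131, around the limit of 114. Prelp and Podn of that family differed by -0.37 ± 0.22 and -0.36 ± 0.26, and Nyx by -0.10 ± 0.09. Among 6 other prolyl peptidases related to Dpp4 and Fap, 3 lay above and 3 below 0, and Dpp9 (-0.17 ± 0.08) had groups that did not overlap. The values for Dpp7, Dpp8 and Prep were 0.09 ± 0.17, -0.07 ± 0.08 and -0.05 ± 0.12. Of the 6 listed genes of PDGF ligands and related receptors, 5 lay below 0 with a median of -0.15, Pdgfrl only just (-0.01 ± 0.12). Pdgfra itself lay above 0 by about its error (0.17 ± 0.16). The ligand genes had differences of -0.18 ± 0.16 (Pdgfa), -0.14 ± 0.17 (Pdgfb), -0.16 ± 0.11 (Pdgfc) and 0.09 ± 0.10 (Pdgfd). Around F3, 5 of 8 tissue factor partners and inhibitors lay below 0 with a median of -0.05. The thrombin receptor gene F2rl2 was the 1 with groups that did not overlap (-0.27 ± 0.14). It read 97, 108 and 108 on the rAAV-Lmo3 arrays, all under the limit of 114, against 116, 110 and 154 on the rAAV-YFP arrays. F2rl2 passed the level filter only through the rAAV-YFP arrays, so no conclusion is drawn from its difference. The F3 inhibitor gene Tfpi had a difference of 0.15 ± 0.13 and F10, which encodes the coagulation factor that tissue factor activates, of -0.26 ± 0.17. The relatives of Cd248 in C-type lectin group XIV had values of -0.59 ± 0.38 (Thbd, the anticoagulant receptor thrombomodulin), -0.19 ± 0.28 (Cd93) and 0.14 ± 0.14 (Clec14a). Clec14a read 102, 128 and 134 on the rAAV-Lmo3 arrays and 106, 100 and 124 on the rAAV-YFP arrays, around the limit of 114. It passed the level filter only through the rAAV-Lmo3 arrays. Podxl, the sialomucin related to Cd34, differed by -0.16 ± 0.19.

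Markers of further cell types were measured as well. Of 10 smooth muscle and pericyte markers, 8 lay below 0, and their summed intensity was 9274 to 12093 in rAAV-Lmo3 and 10632 to 13056 in rAAV-YFP eWAT. T, NK and B cell markers were mostly too dim, and the 3 tested all lay below 0. Of the 5 skeletal muscle markers tested, 2 lay above 0 and 3 below. Dpp4 is shared with T cells, whose Cd3e read 183, 245 and 220 on the rAAV-Lmo3 arrays, against 268, 248 and 355 on the rAAV-YFP arrays. Like Dpp4, Cd3e was highest on rAAV-YFP 3. Within the rAAV-Lmo3 group Cd3e was highest on array 2, where Dpp4 was lowest. The part of T cells in the Dpp4 level was not tested.

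Over the 6 arrays the mean profile of the 10 markers, centred per gene, was most like those of Dazap2 (r = 0.999), Ikbkb (0.997), Cnppd1 (0.996), Capza2 (0.996) and Slc35b3 (0.995) among 11953 other genes. For single markers the closest profiles were those of Dnmt1 and Gmip for Postn, Fam234a and Rnf4 for Fap, Hmox2 and Cmas for Lum, and Slc31a2 and Armc5 for F3. For Pdgfra they were Srpx and Ankra2, for Pi16 Map3k14 and Fbxl12, for Dpp4 4930577N17Rik and Rpf1, for Cd34 Efl1 and Tulp4, for Cd248 Zfp668 and Ankrd33b, and for Dcn Pias2 and Asb16. These r values ranged upward from 0.965 and are descriptions of 6 shared arrays, since the best of so many genes is high by selection.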

How the data were processed

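Total RNA of eWAT was hybridised to Affymetrix murine Gene Level 1.0 ST arrays. Per the submitters' processing notes the authors summarised probe sets by RMA in Affymetrix Expression Console 1.1, and the deposited values are normalized intensities on a linear scale, rounded to whole numbers, which were turned into log2 values. Gene names came from the platform annotation: of 35556 probe sets, 21789 had 1 symbol, 1621 several and 12146 none. Each of 19938 genes was represented by its brightest probe set, and 19919 symbols were found in the RefSeq table (GRCm38.p6). The dimmest 40% of genes (7975, mean log2 below 6.83, an intensity of about 114) were left out.

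The 3 arrays per group were compared without covariates by lmFit and eBayes of limma 3.58.1 (R 4.3.3) with Benjamini-Hochberg adjustment over 11963 genes. The fit was tested on simulated data. An exact permutation test of 3 pools against 3 cannot go below a two-sided p of 0.1. Precision is limited by the number of arrays. Besides the markers, the 4 smallest p-values of each related list and the closest profiles are named. Adgre1, Mertk, Cd3e, Fcgr1, Lpl, Pdgfrl, Esam, Gpm6a, Upk3b, Lrrn4, Bgn, Fmod and Podnl1 were chosen after their values were seen. Alternatives covered normalization, array weights, variance prior, a replicate block, arrays left out, the dim filter, probe set choice, an added offset of 16 and the methods' t-test. The markers and lists were chosen with earlier results of these data known. No scan or extraction batch was given in the sources used here.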

Additional observations from a re-analysis of the deposited data

How the results depend on the processing

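Under every alternative 0 genes and 0 markers passed at an adjusted p under 0.05. At an unadjusted p under 0.05 the count of markers was 0 in the fit as reported, 1 (Lum) with all arrays under array weights and 1 (Lum) with rAAV-Lmo3 1 and rAAV-YFP 2 both left out. The median difference of the markers lay between -0.09 and 0.10 when single arrays were left out. Of the 10 markers, only Lum and Pdgfra kept their side of 0 in all fits. With single arrays left out the others ranged from -0.14 to 0.0037 (Pi16), -0.32 to 0.056 (Dpp4), -0.10 to 0.0068 (Cd34), -0.038 to 0.41 (Fap), -0.068 to 0.18 (Cd248), -0.084 to 0.059 (Dcn), -0.10 to 0.41 (Postn) and -0.22 to 0.041 (F3). F3 was also above 0 under array weights (0.0019) and with both arrays left out (0.029). The cause was not tested.

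Of all genes, 558 passed at an unadjusted p under 0.05, against 283 without rAAV-Lmo3 3, 263 without rAAV-YFP 2, 840 without the dim filter (of 19938 genes), and 419 to 723 in the other fits. Centring each array on its median gave 317 higher and 216 lower genes, against 271 and 287. Leaving out the dimmest 60% removed 3 markers. The deviations of arrays of the same number from their group means correlated at r of -0.55, -0.40 and 0.26. With 3 arrays per group these values cannot show whether pools of the same number were handled together. With the replicate block in limma, 453 genes passed unadjusted, 0 adjusted, and the smallest p of a marker was 0.107 (Lum). Signal limits Pi16 and Fap most, at 132 to 165 and 129 to 240 beside a limit of 114.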
